A study of Mus musculus with 16 samples.

Results

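The balance of the active histone marks H3K4me3 and H3K27ac was examined at gene promoters of Bap1 cKO endosteal mesenchymal stromal cells, the connective-tissue cells that line the inner bone surface. The comparison holds 4 of the 16 libraries of the study: the 2 titled H3K4me3 and the 2 titled H3K27ac from cKO mice. The promoters were the 3789 autosomal ones of the 3925 genes in the count table, each taken as the 4 kb centred on the gene start. The cKO group is Prx1-cre;Bap1fl/fl and the WT group is Bap1fl/fl, both on C57BL/6J, so both groups carry the floxed alleles and only the cKO group carries Cre. Prx1-cre is active in limb mesenchyme, and cells in which Cre was not active keep Bap1; the promoter of Bap1 itself was not analysed here. The sources used here state no age. They also do not say whether libraries 1 and 2 of a group stem from different mice, so p-values reflect the variation between these libraries alone, and that variation may be technical.

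The antibody fields of the labels contradict the titles: the libraries titled H3K4me3 list an antibody against acetylated H3K27, and those titled H3K27ac list one against trimethylated H3K4. Marks were taken from the titles. If the antibody fields were right instead, every direction given here would be reversed. As a measured fact beside this, the libraries titled H3K4me3 were the narrower around gene starts, with 82.7% and 82.2% of their counts within 2 kb against 66.6% and 65.4% in the libraries titled H3K27ac, and H3K4me3 is in general the more narrowly promoter-bound of these marks.

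As background, H3K4me3 is written by the COMPASS family of methyltransferases, largely at CpG-rich promoters, including promoters that make little RNA. H3K27ac is written by the acetyltransferases p300 and CBP at active promoters and enhancers. It occupies the lysine that Polycomb repressive complex 2 methylates to H3K27me3, so a single histone tail carries one or the other. BAP1 is the catalytic part of a deubiquitinase that removes ubiquitin from H2AK119, the mark of Polycomb repressive complex 1.

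Values are in CPM, the usual depth-scaled unit, computed over the counts at autosomal promoters of the same library, so each one is a share of a library's promoter signal. A log2 difference is H3K4me3 over H3K27ac; since the antibodies differ, it ranks promoters by which mark is relatively richer there and says nothing of absolute amounts. The libraries held 5483178 and 8193044 promoter counts for H3K4me3 and 2596749 and 2372567 for H3K27ac, with a median of 1272 and 1912, and of 471 and 442, per promoter. Replicates had Pearson's r of 0.990 (H3K4me3) and 0.971 (H3K27ac) over promoters on the log scale, and their counts differed by more than sampling noise, with chi-square per degree of freedom of 2.44 and 3.64. A call is an adjusted p at or under 0.05 in edgeR's quasi-likelihood test over all promoters tested.

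The sequences that show the range of promoters found are those of the most unequal and of the richest promoters, read from the RefSeq promoter table of GRCm38.p6, 5′ to 3′, with 250 bases before and 50 after the gene start. CG dinucleotides are in capitals. Over the 2523 autosomal promoters with an entry, the median was 20 CG in 300 bases. The 3 most H3K4me3-rich promoters relative to H3K27ac held 40 (Sobp), 13 (Fat4) and 22 (Mitf) CG.
Sobp, chr10:43174481-43174780, - strand: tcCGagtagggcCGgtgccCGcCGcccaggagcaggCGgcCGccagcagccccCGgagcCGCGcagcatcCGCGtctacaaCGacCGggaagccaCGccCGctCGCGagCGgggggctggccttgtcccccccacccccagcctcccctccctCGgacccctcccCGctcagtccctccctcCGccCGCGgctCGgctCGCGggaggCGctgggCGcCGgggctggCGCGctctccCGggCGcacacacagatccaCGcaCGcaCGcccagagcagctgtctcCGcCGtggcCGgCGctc
Fat4, chr3:38886690-38886989, + strand: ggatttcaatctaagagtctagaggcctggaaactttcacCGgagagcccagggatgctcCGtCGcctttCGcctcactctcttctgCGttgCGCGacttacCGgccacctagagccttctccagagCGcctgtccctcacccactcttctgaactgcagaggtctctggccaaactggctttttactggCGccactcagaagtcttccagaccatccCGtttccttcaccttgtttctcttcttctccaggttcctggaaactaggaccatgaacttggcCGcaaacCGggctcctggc
Mitf, chr6:97806808-97807107, + strand: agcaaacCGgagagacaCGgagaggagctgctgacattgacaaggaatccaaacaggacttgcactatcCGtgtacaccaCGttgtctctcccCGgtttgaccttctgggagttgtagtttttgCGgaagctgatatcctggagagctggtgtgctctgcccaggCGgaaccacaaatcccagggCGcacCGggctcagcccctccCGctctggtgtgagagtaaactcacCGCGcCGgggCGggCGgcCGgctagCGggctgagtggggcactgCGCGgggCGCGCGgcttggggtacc
Of the promoters most skewed to H3K27ac, 3 with an entry held 2 (S100a3), 1 (Tm4sf1) and 2 (Avil) CG. Rbfa, which had the largest such difference among the genes named below (log2 difference -3.64), was left out of the printed sequences. Its CG content is not given, so these 3 need not stand for all promoters skewed to H3K27ac.
S100a3, chr3:90584409-90584708, + strand: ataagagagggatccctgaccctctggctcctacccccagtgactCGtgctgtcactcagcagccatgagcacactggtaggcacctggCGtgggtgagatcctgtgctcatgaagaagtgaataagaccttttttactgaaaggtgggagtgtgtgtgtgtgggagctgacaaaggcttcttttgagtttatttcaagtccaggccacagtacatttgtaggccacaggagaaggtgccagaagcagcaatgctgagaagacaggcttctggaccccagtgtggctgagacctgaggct
Tm4sf1, chr3:57301939-57302238, - strand: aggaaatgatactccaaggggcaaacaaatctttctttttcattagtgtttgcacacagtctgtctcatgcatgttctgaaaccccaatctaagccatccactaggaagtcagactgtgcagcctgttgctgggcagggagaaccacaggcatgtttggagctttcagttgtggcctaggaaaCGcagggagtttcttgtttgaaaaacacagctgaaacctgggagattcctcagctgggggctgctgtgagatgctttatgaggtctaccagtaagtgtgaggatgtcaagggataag
Avil, chr10:127000459-127000758, + strand: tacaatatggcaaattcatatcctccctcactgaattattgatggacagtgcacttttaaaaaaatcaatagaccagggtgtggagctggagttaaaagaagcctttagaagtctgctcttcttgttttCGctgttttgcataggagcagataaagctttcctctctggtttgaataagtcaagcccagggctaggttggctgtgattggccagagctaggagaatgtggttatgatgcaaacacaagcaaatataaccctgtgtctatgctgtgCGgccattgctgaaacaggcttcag
Among the promoters richest in both marks, Ddx5 and Cep95 are a divergent gene pair whose windows overlap, and with Msl1 they held 34, 29 and 28 CG.
Ddx5, chr11:106788445-106788744, - strand: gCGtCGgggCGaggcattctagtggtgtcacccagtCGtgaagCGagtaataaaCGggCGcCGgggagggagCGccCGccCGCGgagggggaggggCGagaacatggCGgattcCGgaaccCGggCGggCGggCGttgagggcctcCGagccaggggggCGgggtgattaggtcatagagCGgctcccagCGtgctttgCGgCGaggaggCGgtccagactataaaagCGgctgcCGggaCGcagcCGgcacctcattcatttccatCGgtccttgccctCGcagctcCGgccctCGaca
Cep95, chr11:106789002-106789301, + strand: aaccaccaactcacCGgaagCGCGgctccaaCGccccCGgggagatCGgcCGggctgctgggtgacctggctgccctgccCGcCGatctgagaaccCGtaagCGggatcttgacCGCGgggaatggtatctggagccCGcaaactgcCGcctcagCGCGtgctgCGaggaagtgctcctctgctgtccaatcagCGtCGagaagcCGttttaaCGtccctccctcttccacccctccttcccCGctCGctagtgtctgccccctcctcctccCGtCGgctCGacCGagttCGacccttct
Msl1, chr11:98795266-98795565, + strand: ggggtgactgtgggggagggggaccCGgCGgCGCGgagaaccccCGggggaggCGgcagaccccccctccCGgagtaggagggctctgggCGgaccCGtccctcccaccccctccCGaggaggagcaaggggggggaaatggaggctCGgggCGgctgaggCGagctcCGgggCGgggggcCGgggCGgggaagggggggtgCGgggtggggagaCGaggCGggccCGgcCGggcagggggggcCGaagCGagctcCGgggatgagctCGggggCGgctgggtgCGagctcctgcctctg
The letters TATAAA, read on both strands, stood in the Ddx5 sequence alone of these 9, against 8.32% of all promoters with an entry. GGGCGG stood in those of Sobp, Mitf, Ddx5 and Msl1, against 65.7%, and CCAAT in those of Tm4sf1, Avil and Cep95, against 37.8%. Only 66.6% of the autosomal promoters had an entry, under the 80% needed, so CG content was not compared between groups of promoters.

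Most promoters had the marks in unequal shares, and the difference was usually small. Of 3768 promoters tested, 2390 were called (63.4%): 1181 carried relatively more H3K4me3 (31.3%) and 1209 relatively more H3K27ac (32.1%), around a median log2 difference of 0.00. With a fold of at least 2 in addition, 249 (6.61%) were richer in H3K4me3 and 705 (18.7%) in H3K27ac. Across all 3789 promoters the mean CPM of the marks rose together (Pearson's r 0.853 on log2, Spearman's rho 0.886), a description across promoters, which share their libraries and are not independent replicates. In such bulk material, a mark on fewer cells and less of it per cell cannot be told apart.

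The split of calls depends on how the libraries are scaled. Scaled on the totals of the whole 10 kb windows, the calls were 1873 and 841, with TMM factors from those windows 1886 and 822, and the median promoter moved to 0.33 and 0.34. Scaled on the outermost 1 kb of each side, they were 3016 and 266, and the median moved to 1.45. All differences are therefore given relative to the typical promoter, and a gene whose difference is negative but smaller in size than 0.33 or 1.45 turns positive under the respective scaling.

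The H3K27ac-skewed calls lay mostly at weakly marked promoters. H3K27ac was under its median of 184 CPM at 584 of the 705, and at or under 65.2 CPM at 308; 65.2 CPM bounds the lower 75% of cKO H3K27ac values at the 245 promoters that were in the lowest 10% of both marks in WT. Those 245 had medians of 9.30 and 10.9 CPM in the cKO H3K4me3 libraries and of 33.1 and 39.6 CPM in the H3K27ac libraries, so the promoters least marked in WT lay lower in H3K4me3 than in H3K27ac on this scale. Ranked by the geometric mean of both marks in WT, the lowest and next lowest 10% of promoters had median log2 differences of -1.67 and -1.25, the next 0.08, and the highest 10% -0.09. Among promoters at or above the WT median of either mark, the 2-fold calls were 134 for H3K4me3 and 159 for H3K27ac. The promoters described next were therefore limited to those at or above the median CPM of their richer mark.

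**Figure D1:**
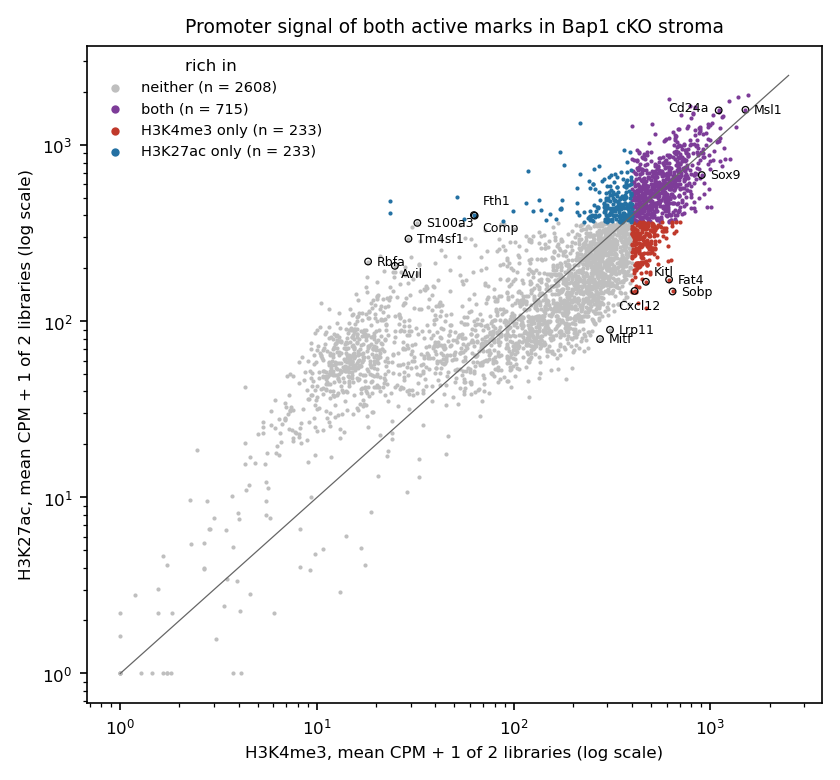
Mean CPM + 1 of the 2 cKO libraries per autosomal promoter, H3K4me3 on the horizontal and H3K27ac on the vertical log axis, coloured by whether the promoter was in the top 25% of both marks (715), of H3K4me3 alone (233), of H3K27ac alone (233) or of neither (2608). The grey line marks equal values; a cloud of weakly marked promoters lies above it at the left, and the named promoters most skewed to H3K4me3 lie below it at the right.

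The promoters with the most H3K4me3 relative to H3K27ac included those of transcription factors and of secreted or surface proteins. The 12 named by rule (largest difference, both libraries of one mark above both of the other) had log2 differences of 1.49 to 2.13. All 12 were called in the same direction in WT, as were 1210 of the 3767 promoters tested there. At 8 of the 12 the size of the balance still differed between genotypes, toward H3K4me3 in cKO, by the test of that difference. Of all promoters tested, 9.31% were called that way. The cKO values that chose the 12 also enter that test. Sobp, the sine oculis-binding protein gene (ENSMUSG00000038248, promoter chr10:43172531-43176530), had 647 and 636 CPM of H3K4me3 and 125 and 169 CPM of H3K27ac (log2 difference 2.13 ± 0.14 (SE), adjusted p = 4.2e-05). Fat4, an atypical cadherin of planar cell polarity (ENSMUSG00000046743, chr3:38884940-38888939), had 608 and 624 CPM of H3K4me3 and 155 and 188 of H3K27ac (log2 difference 1.85 ± 0.12 (SE), adjusted p = 3.7e-05). In neither gene did the libraries of the marks overlap, which the naming rule required.

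Mitf, the transcription factor of melanocytes and osteoclasts (ENSMUSG00000035158, chr6:97805058-97809057), had 281 and 268 CPM of H3K4me3 against 76.6 and 80.1 of H3K27ac (log2 difference 1.81 ± 0.14 (SE), adjusted p = 5.6e-05). Shox2, a homeobox gene of the proximal limb, had 424 and 415 CPM of H3K4me3 against 168 and 124 of H3K27ac (log2 difference 1.52 ± 0.15 (SE), adjusted p = 1.3e-04). Maf, a bZIP transcription factor, had 367 and 329 CPM of H3K4me3 against 96.7 and 151 of H3K27ac (log2 difference 1.49 ± 0.20 (SE), adjusted p = 4.1e-04). All 3 encode regulators of transcription, and H3K4me3 exceeded H3K27ac in both libraries of each, which the naming rule required. Lhx6, a LIM homeobox gene, differed by 1.57 ± 0.19 and Maml3, a coactivator of Notch signalling, by 1.51 ± 0.14 on the log2 scale. The receptor-related gene Lrp11, Arhgap20, the Cdc42 effector Cdc42ep3 and the membrane protein gene Tmem229b lay between 1.50 and 1.79.

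Kitl and Cxcl12 encode stem cell factor and the chemokine CXCL12, secreted factors that stromal cells supply to blood progenitors, and both promoters leaned to H3K4me3. Kitl (ENSMUSG00000019966, chr10:100013630-100017629) had 468 and 471 CPM of H3K4me3 and 153 and 182 of H3K27ac (log2 difference 1.49 ± 0.12 (SE), adjusted p = 7.3e-05). Cxcl12 (ENSMUSG00000061353, chr6:117166574-117170573) had 401 and 422 CPM of H3K4me3 and 137 and 159 of H3K27ac (log2 difference 1.47 ± 0.12 (SE), adjusted p = 7.4e-05). The cKO libraries of the marks did not overlap at either gene, which the naming rule required of Kitl. In WT the balance was 1.41 at Kitl and 1.32 at Cxcl12, and the test of the difference between genotypes gave 0.08 ± 0.16 (SE; adjusted p = 0.757) and 0.15 ± 0.19 (SE; adjusted p = 0.605). Sox9, the chondrocyte transcription factor, was rich in both marks, with 891 and 916 CPM of H3K4me3 and 729 and 627 of H3K27ac (log2 difference 0.41 ± 0.10 (SE), adjusted p = 0.00582). Pparg, the adipocyte regulator, had little of either, with 64.4 and 70.3 CPM of H3K4me3 and 67.4 and 74.2 of H3K27ac, beside 528 and 565 CPM of H3K4me3 and 417 and 349.6 of H3K27ac in WT; its cKO balance of -0.07 ± 0.21 did not pass the test (adjusted p = 0.783).

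The promoters with the most H3K27ac relative to H3K4me3 held genes of quite different kinds, with log2 differences of -3.64 to -2.67 at the 12 named by the same rule. Of these, 11 were called in the same direction in WT, as were 1314 of the 3767 promoters tested there. Rbfa was the exception. The test of the difference between genotypes called 3 of these 12, toward H3K27ac in cKO, as it did 8.72% of all promoters tested. S100a3, a calcium-binding protein gene (ENSMUSG00000001021, chr3:90582659-90586658), had 372 and 352 CPM of H3K27ac and 32.5 and 30.4 of H3K4me3 (log2 difference -3.53 ± 0.14 (SE), adjusted p = 6.0e-06). Tm4sf1, a membrane protein gene of the transmembrane 4 family (ENSMUSG00000027800, chr3:57299937-57303936), had 293 and 296 CPM of H3K27ac and 29.2 and 27.2 of H3K4me3 (log2 difference -3.39 ± 0.15 (SE), adjusted p = 9.3e-06). Both carried H3K27ac well above the median promoter and H3K4me3 far below it. Comp, a cartilage and tendon matrix protein, had 371 and 432 CPM of H3K27ac against 59.1 and 64.4 of H3K4me3 (log2 difference -2.70 ± 0.14 (SE), adjusted p = 1.5e-05), and Fth1, the ferritin heavy chain, 437 and 359.5 CPM of H3K27ac against 61.6 and 63.1 of H3K4me3 (log2 difference -2.67 ± 0.14 (SE), adjusted p = 1.6e-05). Rbfa, a mitochondrial ribosome assembly factor on chromosome 18, had the largest difference (log2 difference -3.64 ± 0.26 (SE), adjusted p = 5.0e-05). The actin-binding gene Avil, the serpin Serpinb10, Itgb7, Hrct1, Baalc, the keratin gene Krt79 and Cd68 lay between -3.10 and -2.69. All 12 stayed negative with scaling on the outermost 1 kb, at -2.20 to -1.23. Each gene was measured only around the start used here, and any other starts of these genes were not examined.

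Itgb7, an integrin of lymphocytes, and Cd68, a lysosomal protein of macrophages, are also blood cell genes. Of the 12 blood cell markers on the marker list only Lyz2, the macrophage lysozyme, was measured under its name; it had 14.8 and 8.79 CPM of H3K4me3 and 29.7 and 27.4 of H3K27ac, at the level of the promoters least marked in WT. The other 11 were not analysed here, nor were any of 8 endothelial markers, and the part of other cells in these values was not tested.

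**Figure D2:**
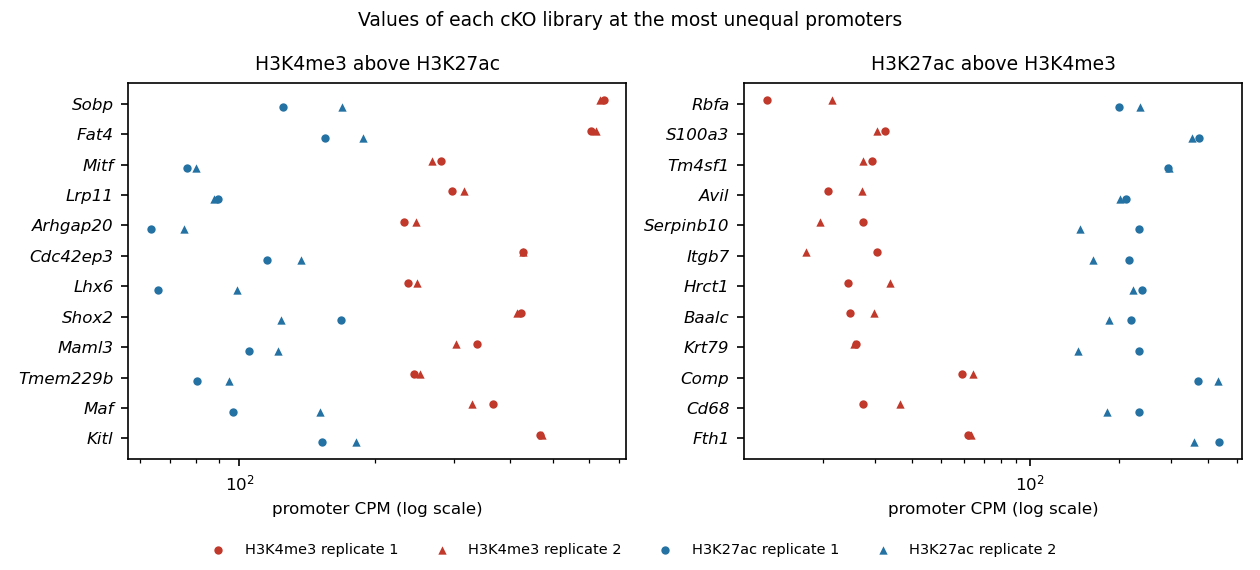
Promoter CPM (log axis) in each cKO library at the 12 promoters most skewed to H3K4me3 (left) and the 12 most skewed to H3K27ac (right); red marks H3K4me3, blue H3K27ac, circles replicate 1 and triangles replicate 2. At every gene both libraries of one mark exceed both of the other, which the rule for naming them required.

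The skewed promoters differed in a mark that had no part in choosing them. At the 151 promoters at least 2-fold richer in H3K4me3 and at or above its median, H3K27me3 had medians of 334 and 339.9 CPM in the cKO libraries, against 213 and 208 over all autosomal promoters. At the 121 promoters at least 2-fold richer in H3K27ac and at or above its median, it had 155 and 140.3 CPM. The share in the top 25% of H3K27me3 in both cKO libraries was 49.0% (74 of 151) for the first group, 4.13% (5 of 121) for the second and 20.8% for all. In the WT libraries the shares were 51.7%, 3.31% and 21.2%. H2AK119ub1 in cKO was closer together, with medians of 307 and 299 CPM in the first group, 257 and 259.8 in the second and 266 and 265 over all. It lay further apart in WT, with 335 and 325 CPM in the first group, 201 and 212 in the second and 249 and 255 over all. The shares in its top 25% in both libraries were 25.8%, 15.7% and 15.8% in cKO and 38.4%, 7.44% and 18.8% in WT. These are descriptions of 2 libraries a mark, and the groups differ in H3K27ac level as well as in balance.

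Of the 12 named H3K4me3-skewed genes, 8 were in the top 25% of H3K27me3 in both libraries, and of the 12 named H3K27ac-skewed genes 0 were. Sobp had 746 and 815 CPM of H3K27me3, Lrp11 721 and 884, Kitl 778 and 586 and Lhx6 608 and 833. At S100a3 the values were 199 and 125 and at Tm4sf1 205 and 179.9, below the medians over all promoters, whereas Comp had 357 and 277 CPM, above them. Fat4, with 248 and 219 CPM, was not in the top 25% although it was strongly skewed to H3K4me3.

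**Figure D3:**
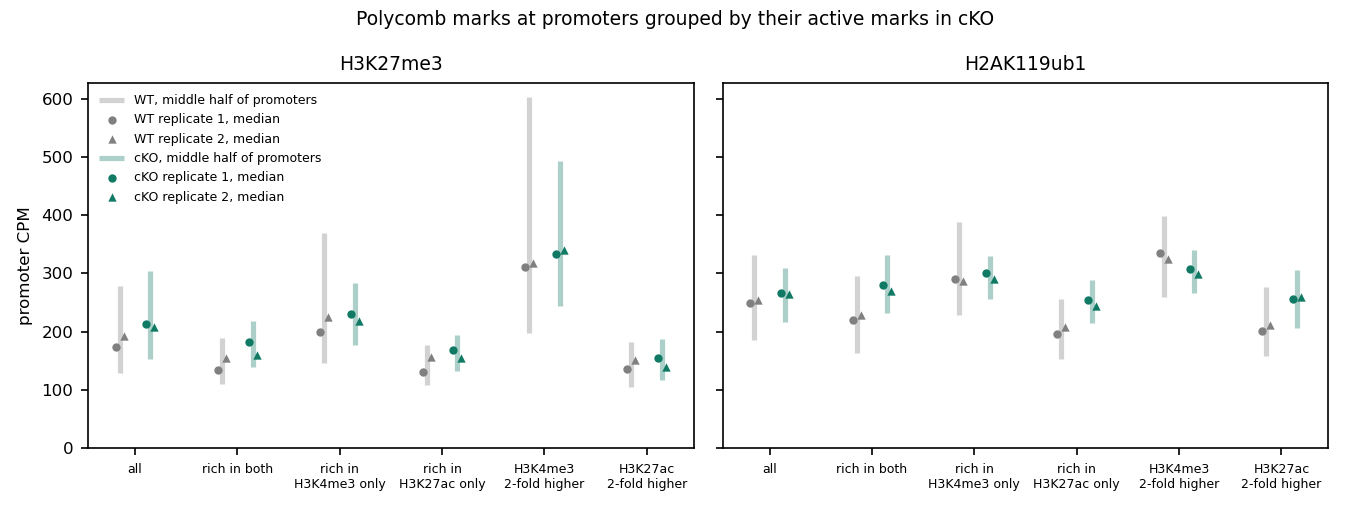
Median promoter CPM of H3K27me3 (left) and H2AK119ub1 (right) in each WT (grey) and cKO (green) library, for all promoters, those rich in both or one active mark in cKO, and those at least 2-fold richer in one of them and at or above its median; bars span the middle 50% of promoters by the mean of the libraries. H3K27me3 stands highest where H3K4me3 was 2-fold higher, with cKO medians of 334 and 339.9 CPM.

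Rich promoters were taken as the top 25% of a mark by the mean of its 2 cKO libraries, which put the thresholds at 397 CPM for H3K4me3 and 366 CPM for H3K27ac. Nars and Rabep1 lay just inside the first and Mob3a and Tmem101 just outside it, all at 397 CPM; Pcdh18 and B4galt1 lay just inside the second at 366 CPM, and AU022252 and Tmem86a just outside at 366 and 365. By this rule 715 promoters (18.9%) were rich in both marks, 233 in H3K4me3 alone, 233 in H3K27ac alone and 2608 in neither. Classes set from replicate 1 and from replicate 2 alone shared 658, 174 and 167 promoters, so the single-mark classes were the less stable.

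The richest promoters included genes of RNA handling and chromatin. Ddx5, an RNA helicase, had 1587 and 1519 CPM of H3K4me3 and 1884 and 1965 of H3K27ac, and Msl1, a subunit of a histone H4 acetyltransferase complex, 1544 and 1472 CPM of H3K4me3 and 1676 and 1510 of H3K27ac. Cd24a, a surface glycoprotein, had 1093 and 1111 CPM of H3K4me3 and 1611 and 1554 of H3K27ac. Each of these values was more than 2-fold over the threshold of its mark. Hnrnph3, a splicing factor, and its divergent neighbour Pbld2 shared a window, as did Ddx5 and Cep95; Lrrc41 also shares its window. Hivep2, a zinc finger transcription factor, had 1334 and 1352 CPM of H3K4me3 and 1358 and 1182 of H3K27ac, and the trafficking gene Gga3 and the endoplasmic reticulum gene Ccdc47 completed the 10. Since these genes were ranked by the marks themselves, the levels are a description.

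In WT, 389 of the 715 promoters rich in both marks were also rich in both (54.4%), 169 were rich in neither, 81 in H3K4me3 alone and 76 in H3K27ac alone. Over all 3789 promoters, the same rule in WT put 658 in the class rich in both, 290 in H3K4me3 alone, 290 in H3K27ac alone and 2551 in neither. Of the 233 rich in H3K4me3 alone, 70 (30.0%) were in the same class in WT, 51 were rich in both and 109 in neither. Of the 233 rich in H3K27ac alone, 70 (30.0%) were in the same class in WT, 69 were rich in both and 92 in neither. The deposited table marks 1849 autosomal genes UP and 1940 DOWN by a criterion that the sources used here do not give; UP genes made up 72.3% of the promoters rich in both (517 of 715), 54.9% and 57.1% of the single-mark classes and 48.8% of all.

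Promoters rich in both marks were unevenly spread over chromosomes. Chromosome 11 held 135 of them, 39.7% of its 340 promoters and 18.9% of the class against 8.97% of all promoters; chromosome 4 held 92 and chromosome 16 held 8. In WT chromosome 11 held 65 such promoters and chromosome 4 held 12. The outermost 1 kb of the windows moved alongside in a mark that did not set the class: log2 H2AK119ub1 there, relative to all autosomes, was 0.38 in cKO and 0.05 in WT on chromosome 11, -0.20 and -0.58 on chromosome 4, and -0.49 and -0.09 on chromosome 16. With the threshold set within each chromosome, chromosome 11 held 64 and the class 709, of which 586 were shared. Of the 10 richest genes 5 lie on chromosome 11 and 4 on chromosome 10, where the same flank values were 0.50 and 0.32. The part of chromosome-wide signal in these counts was not tested. The medians of the balance by chromosome ran from -0.13 to 0.17.

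The marks had different shapes. Within 2 kb of gene starts lay 82.7% and 82.2% of the window counts of the H3K4me3 libraries and 66.6% and 65.4% of those of the H3K27ac libraries; their 95% Wilson intervals, which cover counting error only, were 82.67 to 82.77, 82.17 to 82.25, 66.55 to 66.71 and 65.28 to 65.45%. Within 400 bp lay 34.9% and 35.2% against 25.3% and 25.2%. The libraries did not overlap, and the exact two-sided permutation test gave p = 0.333 for both distances, the smallest that 2 libraries against 2 allow. The gap in the share within 2 kb lay on the gene side. The 2 kb downstream of the start held 54.6% and 54.4% of H3K4me3 against 38.9% and 38.0% of H3K27ac. The 2 kb upstream held 28.1% and 27.9% against 27.7% and 27.3%. Similar upstream shares do not mean similar upstream width, since H3K27ac had more counts beyond 2 kb on both sides. Upstream beyond 2 kb lay a mean of 8.26% of H3K4me3 and 16.3% of H3K27ac, and downstream 9.28% and 17.7%. H3K4me3 was thus the narrower mark on both sides.

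At promoters rich in both marks, the mean profile of H3K4me3 was highest 275 bp into the gene and that of H3K27ac 175 bp into it, in both libraries of each. The share of H3K27ac counts far from the start differed between classes. At the 121 H3K27ac-skewed promoters at or above its median, 38.1% and 39.0% of H3K27ac counts lay beyond 2 kb, and at the 151 H3K4me3-skewed promoters 38.2% and 39.7%, beside 24.7% and 25.1% at promoters rich in both, 43.6% and 44.9% at those rich in neither and 33.4% and 34.6% over all. H3K4me3 had 40.0% and 40.8% of its counts beyond 2 kb at the H3K27ac-skewed promoters, against 17.3% and 17.8% over all. Within 400 bp it had 19.9% and 20.2% there, against 34.9% and 35.2% over all. At the 151 H3K4me3-skewed promoters 11.7% and 12.1% of H3K4me3 counts lay beyond 2 kb, against 14.2% and 14.3% at promoters rich in both. The groups were set from the same libraries, so these shares are given without a test.

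**Figure D4:**
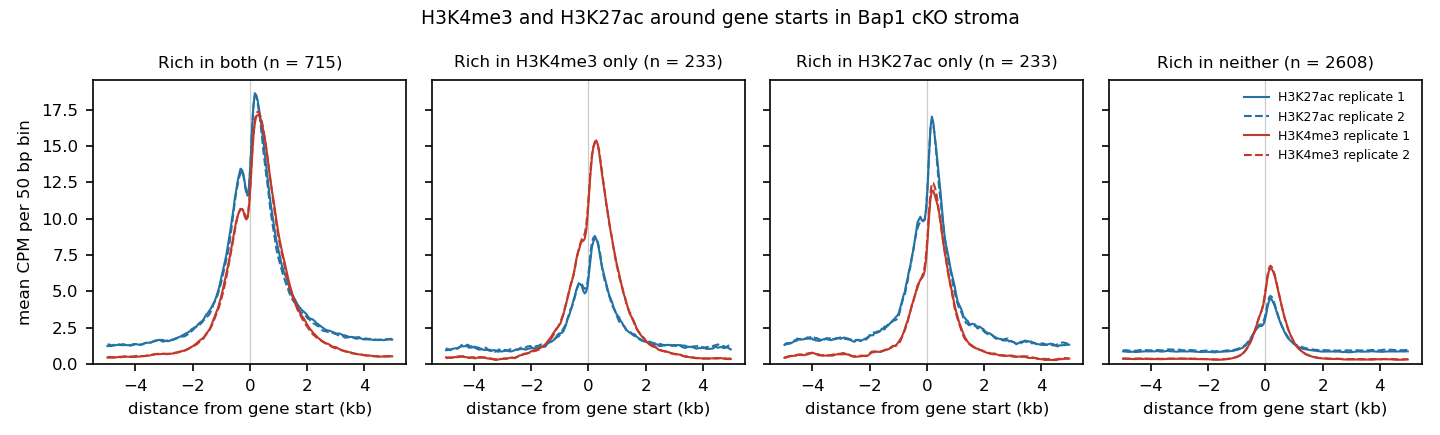
Mean CPM per 50 bp bin against the distance from the gene start in kb, positive into the gene, for each cKO library in the 4 classes; red marks H3K4me3, blue H3K27ac, solid lines replicate 1 and dashed lines replicate 2. Replicates nearly coincide; at promoters rich in both marks H3K4me3 peaks at 275 bp and H3K27ac at 175 bp, and H3K27ac stays higher in the outer part of the window.

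Genes of signalling pathways leaned to H3K4me3. Of 107 listed genes of Wnt, BMP, Notch, FGF and hedgehog signalling, 43 were measured; 24 carried relatively more H3K4me3 (31.3% of all promoters did) and 6 more H3K27ac (32.1% of all), with a median log2 difference of 0.56 beside 0.00 over all promoters tested. Scaled on window totals the calls were 34 and 4, beside 1873 and 841 of 3764 over all promoters. On the outermost 1 kb they were 41 and 0, beside 3016 and 266 of 3767. Most of the rise in H3K4me3 calls is thus common to all promoters. Fst, which encodes the activin antagonist follistatin, had 381 and 408 CPM of H3K4me3 and 146 and 148 of H3K27ac (log2 difference 1.43 ± 0.11 (SE), adjusted p = 6.5e-05). Wif1, a secreted Wnt inhibitor, had 393 and 355 CPM of H3K4me3 and 142 and 131 of H3K27ac (log2 difference 1.45 ± 0.12 (SE), adjusted p = 7.9e-05), and Wnt5a, a Wnt ligand, 614 and 604 CPM of H3K4me3 and 253 and 282 of H3K27ac (log2 difference 1.19 ± 0.10 (SE), adjusted p = 8.0e-05). The ligand and both antagonists thus carried H3K4me3 above H3K27ac in every library. Hes1, a target of Notch, lay the other way, with 693 and 731 CPM of H3K4me3 and 1595 and 1375 of H3K27ac (log2 difference -1.06 ± 0.09 (SE), adjusted p = 9.0e-05), though its difference was 0.38 with scaling on the outermost 1 kb.

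Developmental transcription factors leaned the same way: of 23 measured, 12 carried relatively more H3K4me3 and 3 more H3K27ac (31.3% and 32.1% of all promoters), with a median of 0.35, and the calls were 19 and 0 on window totals and 21 and 0 on the outermost 1 kb. Here and for the niche factors below, all promoters gave 1873 and 841 calls of 3764 on window totals. On the outermost 1 kb they gave 3016 and 266 of 3767. Beside Shox2 and Lhx6, the forkhead genes Foxf2 and Foxa1 were called: Foxf2 had 233 and 271 CPM of H3K4me3 and 100.1 and 102 of H3K27ac (log2 difference 1.32 ± 0.14 (SE), adjusted p = 1.9e-04), and Foxa1 243 and 198 of H3K4me3 and 71.6 and 88.1 of H3K27ac (log2 difference 1.47 ± 0.18 (SE), adjusted p = 3.0e-04). Their H3K27me3, 786 and 815 CPM at Foxf2 and 852 and 878 at Foxa1, lay above the medians of 213 and 208 over all promoters. Of 19 niche factors measured, 10 carried relatively more H3K4me3 and 5 more H3K27ac (31.3% and 32.1% of all), with a median of 0.27; on window totals the calls were 12 and 2 and on the outermost 1 kb 17 and 0. They include, beside Kitl and Cxcl12, the Notch ligand Dll1 at 1.35 ± 0.13 and the lymphatic growth factor Vegfc at 1.04 ± 0.14, both called. When all promoters were ranked into 10 groups by their WT level of both marks, groups 4 to 8 had medians of 0.31, 0.21, 0.15, 0.20 and 0.14. The list medians of 0.35 and 0.27 lie close to these, and the lists were not compared with promoters of matched level.

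Immediate early genes, which are switched on fast by stress and growth factors, were mostly rich in both marks. Of 17 measured, 12 were rich in both, against 18.9% of all promoters, 1 in H3K27ac alone and 4 in neither, and 11 were marked UP by the authors, against 48.8% of all; 8 carried relatively more H3K27ac (32.1% of all) and 0 more H3K4me3 (31.3% of all), with a median of -0.21. At an unadjusted p under 0.05 the count for H3K4me3 was 0, and with DESeq2 0. The direction of the calls changed with the scaling: those for H3K4me3 and H3K27ac were 5 and 4 on window totals and 17 and 0 on the outermost 1 kb. All promoters gave 1873 and 841 of 3764 and 3016 and 266 of 3767. The median of the list stayed below that of all promoters, at 0.11 against 0.33 and at 1.23 against 1.45. Such scaling shifts all promoters alike, so it cannot change the place of the list among them. Junb had 795 and 746 CPM of H3K4me3 and 1261 and 1330 of H3K27ac (log2 difference -0.75 ± 0.08 (SE), adjusted p = 1.8e-04), Fos 636 and 534 CPM of H3K4me3 and 1029 and 1119 of H3K27ac (log2 difference -0.88 ± 0.10 (SE), adjusted p = 2.9e-04), and Fosb 491 and 423 CPM of H3K4me3 and 797 and 954 of H3K27ac (log2 difference -0.94 ± 0.12 (SE), adjusted p = 3.4e-04). These AP-1 genes had H3K27ac above H3K4me3 in every library, as did the transcription factor gene Klf4, with 909.5 and 857 CPM of H3K4me3 and 1242 and 1310 of H3K27ac (log2 difference -0.53 ± 0.08 (SE), adjusted p = 6.6e-04); all 4 turn positive with scaling on the outermost 1 kb, at 0.70, 0.58, 0.52 and 0.92.

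Markers of the labelled cell type were measured for 13 of 18 listed genes, of which 2 were rich in both marks, 1 in H3K4me3 alone, 1 in H3K27ac alone and 9 in neither. Over all promoters 18.9% were rich in both, 6.15% in H3K4me3 alone, 6.15% in H3K27ac alone and 68.8% in neither. Vim, an intermediate filament of mesenchymal cells, had 621 and 573 CPM of H3K4me3 and 1127 and 1051 of H3K27ac (log2 difference -0.87 ± 0.09 (SE), adjusted p = 1.4e-04; 0.58 with scaling on the outermost 1 kb), well over both thresholds. S100a4, a fibroblast marker, had 116 and 112 CPM of H3K4me3 and 518 and 427 of H3K27ac (log2 difference -2.05 ± 0.13 (SE), adjusted p = 3.3e-05). Eng, the TGF-beta coreceptor endoglin, was low in both marks, with 18.1 and 11.2 CPM of H3K4me3 and 68.2 and 110.0 of H3K27ac, beside 235 and 225 CPM of H3K4me3 and 281 and 274 of H3K27ac in WT. Of the 13, 3 carried relatively more H3K4me3 and 7 more H3K27ac (31.3% and 32.1% of all promoters), with a median of -0.87. The calls were 3 and 7 on window totals and 7 and 2 on the outermost 1 kb, where the median was 0.58. All promoters gave 1873 and 841 calls of 3764 and 3016 and 266 of 3767 under these scalings.

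Of 10 bone genes measured, all 10 were rich in neither mark in cKO, as were 68.8% of all promoters; 3 carried relatively more H3K4me3 and 3 more H3K27ac, close to the shares of 31.3% and 32.1% over all promoters (median -0.56, and 0.89 with scaling on the outermost 1 kb, where the calls were 6 and 1). With that scaling all promoters gave 3016 and 266 calls of 3767. Spp1, osteopontin, had 19.3 and 24.9 CPM of H3K4me3 and 83.2 and 81.3 of H3K27ac, and Col1a2, a type I collagen chain, 46.9 and 38.3 CPM of H3K4me3 and 73.9 and 105 of H3K27ac. Both marks were higher in WT, with H3K4me3 of 189 and 182 CPM at Spp1 and 582 and 506 at Col1a2. WT H3K27ac was 318 and 213 CPM at Spp1 and 899.6 and 898 at Col1a2. In cKO both genes were called for H3K27ac, at -1.89 ± 0.27 and -1.07 ± 0.26, Col1a2 turning to 0.39 with scaling on the outermost 1 kb. Twist2, a mesenchymal transcription factor gene, had 385 and 386 CPM of H3K4me3 and 307 and 288 of H3K27ac and leaned to H3K4me3 (log2 difference 0.37 ± 0.10 (SE), adjusted p = 0.0116). Its WT values were 702 and 698 CPM of H3K4me3 and 622 and 600.4 of H3K27ac. The top 25% began in WT at 405 CPM of H3K4me3 and 371 of H3K27ac. Runx2, Col1a2 and Twist2 lay above both in WT, and the other listed bone genes did not.

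Of 8 cartilage and tendon genes, 2 carried relatively more H3K4me3 and 5 more H3K27ac, where over all promoters 31.3% and 32.1% did (median -0.87; calls 4 and 1 with scaling on the outermost 1 kb, where the median was 0.58). For this list and those below, all promoters gave 3016 and 266 calls of 3767 on the outermost 1 kb. On window totals they gave 1873 and 841 of 3764. Col11a1, a cartilage collagen, had 462 and 441 CPM of H3K4me3 and 175 and 171 of H3K27ac (log2 difference 1.38 ± 0.10 (SE), adjusted p = 5.7e-05), opposite to Comp. The hypertrophic cartilage collagen Col10a1 and the joint growth factor Gdf5 differed by -1.62 ± 0.23 and -1.40 ± 0.25 (both called, Gdf5 at 0.05 with scaling on the outermost 1 kb), with H3K4me3 of 42.7 and 38.3 CPM at Col10a1 and 33.6 and 30.0 at Gdf5. Of 13 adipocyte genes, 5 leaned each way (median -0.07; 6 and 4 on window totals, 11 and 1 on the outermost 1 kb): Plin4 and Fabp4, of lipid droplets and fatty acid binding, differed by -2.52 ± 0.24 and -1.84 ± 0.32 (Fabp4 at the level of the least marked promoters in both marks, with 13.9 and 16.8 CPM of H3K4me3 and 57.4 and 52.7 of H3K27ac), and Srebf1, of lipid synthesis, by -0.68 ± 0.12 (0.76 on the outermost 1 kb), all 3 called. Of 31 matrix genes, 9 carried relatively more H3K4me3 and 11 more H3K27ac, close to the shares over all promoters (31.3% and 32.1%; median -0.04; 16 and 8 on window totals, 25 and 1 on the outermost 1 kb). The metalloproteinase inhibitor gene Timp3, the procollagen protease gene Adamts2 and the fibrillin gene Fbn2 leaned to H3K4me3 (1.05 ± 0.10, 1.47 ± 0.14 and 1.10 ± 0.11) and Loxl1, a collagen and elastin crosslinking enzyme, to H3K27ac (-2.09 ± 0.18), all called; the window of Adamts2 overlaps that of another gene.

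The balance of the marks was mostly shared with WT stroma but differed at a minority of promoters. Across 3764 promoters the log2 balance in cKO and in WT had Pearson's r of 0.803 and Spearman's rho of 0.777, over libraries that share promoters and antibodies. In WT the calls with at least a 2-fold difference were 179 (4.75%) for H3K4me3 and 731 (19.4%) for H3K27ac. Of the 151 cKO promoters skewed to H3K4me3, 138 had the same direction in WT and 53 (35.1%) the same 2-fold call; of the 121 skewed to H3K27ac, 120 and 85 (70.2%). The test of the difference itself, the interaction of mark and genotype in 8 libraries, called 680 of 3772 promoters, 351 (9.31%) with relatively more H3K4me3 in cKO and 329 (8.72%) with relatively more H3K27ac. The counts fell without single libraries of H3K4me3: to 225 and 190 without WT replicate 1, 243 and 199 without WT replicate 2, 227 and 184 without cKO replicate 1, and 218 and 202 without cKO replicate 2.

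Among promoters whose balance moved to H3K4me3 was that of Scx. Scx, scleraxis, the transcription factor of tendon cells (ENSMUSG00000034161, chr15:76455452-76459451), had 118 and 121 CPM of H3K4me3 in WT and 456 and 440.1 in cKO, while its H3K27ac was 615 and 577 in WT against 575 and 559 in cKO. The WT and cKO libraries were far apart in H3K4me3 and near each other in H3K27ac, and the balance differed by 1.97 ± 0.15 (SE; adjusted p = 4.3e-08). Igfbp6, a binding protein of insulin-like growth factors, went from 88.7 and 74.6 CPM of H3K4me3 to 444 and 394, with H3K27ac of 675 and 547 CPM in WT against 746 and 620.4 in cKO, a difference in balance of 2.20 ± 0.19 (SE; adjusted p = 1.8e-07). Fbn2, fibrillin-2, had both marks higher in cKO: H3K4me3 was 15.9 and 26.0 CPM in WT and 419 and 416 in cKO, H3K27ac 43.6 and 65.9 CPM in WT against 182 and 209 in cKO, and the balance differed by 2.48 ± 0.30 (SE; adjusted p = 2.5e-05).

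At Hhipl1 and Zfhx4 H3K27ac was lower in the cKO libraries. Hhipl1, related to a hedgehog-interacting protein, had H3K27ac of 814 and 772 CPM in WT and 164 and 187 in cKO, beside H3K4me3 of 231 and 235 CPM in WT against 177 and 171 in cKO; its balance differed by 1.75 ± 0.16 (SE; adjusted p = 8.2e-07). Zfhx4, a homeodomain zinc finger gene, had H3K27ac of 622 and 542 CPM in WT against 104 and 88.1 in cKO and H3K4me3 of 544 and 540.2 CPM in WT against 276 and 239 in cKO, a difference of 1.52 ± 0.18 (SE; adjusted p = 1.5e-05). Both marks of Zfhx4 were thus lower in the cKO libraries, H3K27ac by more. The differences were 1.65 for the keratin gene Krt80, 1.81 for the iron regulator Hfe and 1.38 for Coa3, a cytochrome oxidase assembly factor. Krt80 had H3K4me3 of 60.8 and 51.1 CPM in WT against 120.4 and 115 in cKO, and H3K27ac of 1036 and 1077 CPM in WT against 751 and 669 in cKO. Hfe had H3K4me3 of 88.7 and 93.4 CPM in WT against 116 and 111 in cKO, and H3K27ac of 358 and 360.5 CPM in WT against 131 and 126 in cKO. Coa3 had both marks higher, with H3K4me3 of 103 and 99.3 CPM in WT against 454 and 424 in cKO and H3K27ac of 304 and 270.3 CPM in WT against 504 and 454 in cKO. All 8 were called and were chosen as those of lowest p in this direction.

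Promoters whose balance moved to H3K27ac included the bone regulator Runx2. At the Runx2 start measured here (ENSMUSG00000039153, chr17:44812227-44816226), H3K4me3 was 721 and 611 CPM in WT and 22.4 and 25.4 in cKO, and H3K27ac 612 and 587 in WT against 108 and 105 in cKO, with a difference in balance of -2.29 ± 0.19 (SE; adjusted p = 1.1e-07). Both marks were lower in both cKO libraries, H3K4me3 by more. Rbfa was the extreme case, with H3K4me3 of 302 and 267 CPM in WT and 12.9 and 21.4 in cKO and H3K27ac of 221 and 245 CPM in WT against 199.9 and 236 in cKO, which differed little between the genotypes, and a difference in balance of -3.92 ± 0.27 (SE; adjusted p = 1.8e-08). Ift27, an intraflagellar transport gene, was near the floor of both in cKO, with 4.56 and 7.81 CPM of H3K4me3 and 46.6 and 27.4 of H3K27ac in cKO against 322 and 327 CPM of H3K4me3 and 228 and 250.3 of H3K27ac in WT; its cKO values lie at the level of the least marked promoters, and its difference in balance was -2.97 ± 0.34 (SE; adjusted p = 1.3e-05).

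Cd24a and Patz1 moved the same way with both marks at or above their WT values. Cd24a had H3K27ac of 244 and 260.3 CPM in WT and 1611 and 1554 in cKO and H3K4me3 of 352 and 377 CPM in WT against 1093 and 1111 in cKO, a difference in balance of -1.05 ± 0.12 (SE; adjusted p = 1.3e-05). Patz1, a zinc finger transcription factor gene, had H3K27ac of 204 and 218 CPM in WT against 545 and 619 in cKO and H3K4me3 of 441 and 463 CPM in WT against 489.7 and 545 in cKO, a difference of -1.26 ± 0.16 (SE; adjusted p = 2.8e-05). L3mbtl3, a reader of methylated histones, differed by -0.93, Loxl1 by -1.48 and Plin4, a lipid droplet protein gene, by -1.81, all called. The levels of a single mark in WT and cKO are given here as values, without a test of each mark.

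**Figure D5:**
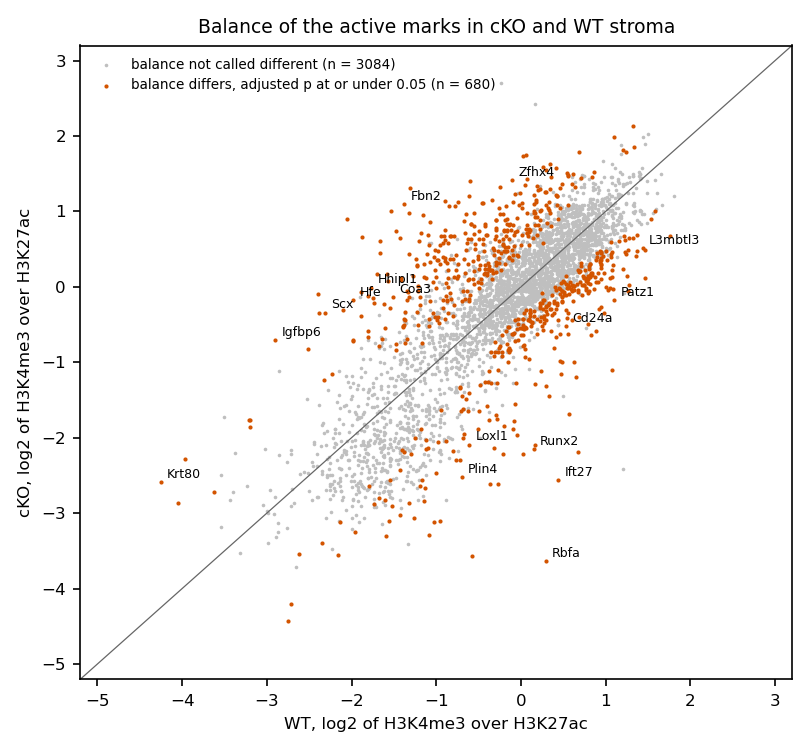
Log2 of H3K4me3 over H3K27ac per promoter in WT (horizontal) and cKO (vertical), 3764 promoters; orange marks the 680 whose balance differed between genotypes at an adjusted p at or under 0.05, and names are the 8 of lowest p in each direction. The line marks equal balance and 1 promoter lies outside the axes; Scx, Igfbp6 and Fbn2 lie above the line, Rbfa, Ift27 and Runx2 below it.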

How the data were processed

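ChIP-seq of formaldehyde-fixed, sonicated chromatin covered 4 marks in 2 genotypes with 2 libraries each (TruSeq, per the labels' protocols). What the authors deposited is a table of raw, unscaled read counts for 785000 bins of 50 bp (per the file headers), with 200 bins over the 10 kb around each of 3925 gene starts. The genome build was GRCm38, and the tools listed, with no settings, are bedtools 2.30.0, Bowtie2 2.4.5, cutadapt 1.18, Picard 2.25.5 and SAMtools 1.9, all per the submitters' processing notes. Input libraries were not used here. In these bins a read was counted in 3 neighbouring bins (98.09% of isolated single-count runs under 6 bins).

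Counts of the bins within 2 kb of each start were summed. Differences were tested by quasi-likelihood in edgeR (4.0.16, under R 4.3.3; robust fit, minimum count 10), with library size the autosomal promoter total, mark as the term in 4 cKO libraries, or mark, genotype and their interaction in 8, and Benjamini-Hochberg adjustment; the SE is the log2 value over the square root of F. On data simulated with real means pooled over libraries, 87% of 2-fold and 100% of 4-fold differences between marks were called, and 35% of 2-fold interactions. The spread between simulated libraries was a fixed setting, not estimated from these libraries, and only promoters above a minimum count were changed. These shares therefore hold for that setting and may differ in the real data. Genes were named by position, from RefSeq starts of GRCm38.p6 on the same strand within 500 bp (3390 of 3925, 86.4%; 3.18% of windows shifted by 20 kb found a name). The 4 kb windows of 296 autosomal promoters overlap another.

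Named genes were the 12 of largest difference in each direction with non-overlapping libraries and the richer mark at or above its median, the 10 highest in both marks, the 8 of lowest interaction p in each direction, 4 of each list by p, and Cxcl12, Kitl, Pparg and Sox9, leaving out predicted and receptor names and, in the first group, shared windows. Members, lists and rules were chosen with earlier results of these data known. Scaling, window width, filters, tools, left-out libraries and class thresholds were varied. Scaling from the 10 kb windows or their outermost 1 kb, and counts within 5 kb, were run for the mark comparison only.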

Additional observations from a re-analysis of the deposited data

Results flagged for a closer look

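The balance of H3K4me3 to H3K27ac differed between cKO and WT, by the test of the interaction itself, at 351 promoters toward H3K4me3 and at 329 toward H3K27ac. Among the genes named for it, the difference in log2 balance, cKO minus WT, was 1.97 at Scx, 2.20 at Igfbp6, 1.75 at Hhipl1, 1.65 at Krt80, 1.52 at Zfhx4, 1.81 at Hfe, 2.48 at Fbn2 and 1.38 at Coa3. In the other direction it was -3.92 at Rbfa, -2.29 at Runx2, -1.05 at Cd24a, -2.97 at Ift27, -1.26 at Patz1, -1.48 at Loxl1, -1.81 at Plin4 and -0.93 at L3mbtl3. All 16 genes kept their direction and their call under the alternatives run for them. These did not include window totals, TMM factors from the windows, scaling on the outermost 1 kb or counts within 5 kb. How the interaction depends on those was not tested.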

How the results depend on the processing

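Calls of the mark comparison (1181 toward H3K4me3, 1209 toward H3K27ac; 249 and 705 with 2-fold) followed the scaling. They were 1886 with TMM factors from the 10 kb windows (671 with 2-fold), 1873 on window totals (648), and 3016 and 266 on the outermost 1 kb (2632 and 168). The 2-fold count toward H3K4me3 was 391 within 1 kb and 106 within 5 kb of the start. Among promoters at or above the WT median of either mark, an alternative chosen after seeing the data, the counts were 729 and 566 (134 and 159 with 2-fold), and balances moved toward H3K4me3 at 208 promoters and toward H3K27ac at 275. Leaving out one library gave 800 to 1377 and 943 to 1302 calls, 236 to 330 and 664 to 726 with 2-fold, and 218 to 494 and 184 to 408 in the interaction. With the top 10% as rich, 241 promoters were rich in both, 138 in H3K4me3 alone and 138 in H3K27ac alone; with the top 50%, 1640 were rich in both. Replicate numbers share only a number (correlation of same-numbered deviations 0.174 in cKO, 0.058 in WT); with the replicate block the calls were 1284 and 1285, and 398 and 381 in the interaction.

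Of 1618 values of the 97 genes named in the mark comparison, 1461 kept direction and side of the threshold, 68 changed sign, 59 lost and 30 gained a call; all 255 values of the interaction genes kept both. The sign changes under scaling follow from its shift of all promoters, and the scalings that gave them were not run for the interaction. On the outermost 1 kb the log2 differences that turned were Ccdc47 1.07, Cd24a 0.92, Cdkn2b 0.69, Cep95 1.01, Col1a2 0.39, Ddx5 1.14, Fos 0.58, Fosb 0.52, Gdf5 0.05, Gga3 1.27, Hdac9 0.36, Hes1 0.38, Hnrnph3 0.96, Hoxa2 0.78, Hoxc10 1.23, Hoxc11 1.15, Hoxc6 0.57, Ing4 1.17, Junb 0.70, Kat8 1.24, Klf4 0.92, Kmt2c 1.13, Lrrc41 1.06, Lyz2 0.16, Mrpl23 0.76, Msl1 1.37, Pbld2 0.92, Pparg 1.38, Prdm9 1.24, Psip1 1.24, Rpl24 1.12, Rps6 1.10, Srebf1 0.76, Tubb3 1.10, Uqcrh 1.07 and Vim 0.58. With TMM factors from the windows they were Ddx5 0.03, Gga3 0.16, Hoxc10 0.12, Hoxc11 0.04, Ing4 0.06, Kat8 0.13, Kmt2c 0.02, Msl1 0.26, Pparg 0.27, Prdm9 0.13, Psip1 0.13 and Rpl24 0.01, and on window totals Ddx5 0.01, Gga3 0.15, Hoxc10 0.10, Hoxc11 0.02, Ing4 0.04, Kat8 0.11, Kmt2c 0.00, Msl1 0.24, Pparg 0.25, Prdm9 0.11 and Psip1 0.11. Within 1 kb they were Hivep2 -0.12, Pparg 0.34 and Prdm9 0.33, within 5 kb Kat2a -0.08, Msl1 0.12 and Prdm9 0.01, and without H3K27ac replicate 2 of cKO Hivep2 -0.02, Pparg 0.00 and Tubb3 0.01 (over all libraries left out in turn, Hivep2 -0.02 to 0.18, Pparg -0.14 to 0.00 and Tubb3 -0.65 to 0.01); the cause of these was not tested. Counts are of window reads, so changes common to all windows are not detectable.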

Other observations

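Over all promoters tested, 31.3% were called for H3K4me3 and 32.1% for H3K27ac, the shares beside which the small gene lists here stand. On window totals the calls were 1873 and 841 of 3764, and on the outermost 1 kb 3016 and 266 of 3767. Of 14 genes of mitochondrial proteins, 7 carried relatively more H3K4me3 and 4 more H3K27ac in cKO (median 0.16; 4 and 4 with DESeq2, 9 and 1 on window totals, 14 and 0 on the outermost 1 kb). The assembly factor Ndufaf2 differed by 1.10 ± 0.12, the ATP synthase gene Atp5h by 0.46 ± 0.09, the ribosomal gene Mrpl23 by -0.69 ± 0.13 and Uqcrh by -0.38 ± 0.08, all called; the windows of Atp5h and Uqcrh overlap those of other genes. Of 8 genes with ribosomal protein names, 3 leaned to H3K27ac and 0 to H3K4me3 (0 at an unadjusted p under 0.05, 0 with DESeq2, 2 on window totals), among them Rps6 at -0.35 ± 0.09 and the pseudogene Rps6-ps4 at -1.57 ± 0.43, which was at the level of the least marked promoters in both marks and whose reads can be split with near-identical copies; Rpl24, at -0.33 ± 0.14, was not called. Of 9 cell cycle and p53 genes, 5 leaned to H3K4me3 and 2 to H3K27ac (9 and 0 on the outermost 1 kb), with Cdk6 at 1.30 ± 0.17, Ccne1 at 0.80 ± 0.11, E2f2 at 0.84 ± 0.15 and the inhibitor gene Cdkn2b at -0.75 ± 0.12, all called.

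Of 5 H3K4 methylation genes, 1 (Kmt2c, -0.32 ± 0.09) leaned to H3K27ac and 0 to H3K4me3 (0 at an unadjusted p under 0.05, 0 with DESeq2, 5 on the outermost 1 kb), and Ing4, Psip1 and Prdm9 were not called (-0.28 ± 0.12, -0.21 ± 0.09 and -0.21 ± 0.12). Of 5 acetylation genes, Ncoa3 leaned to H3K4me3 (0.40 ± 0.12) and Hdac9 to H3K27ac (-1.08 ± 0.35, 0.36 on the outermost 1 kb), though Hdac9 was at the level of the least marked promoters in both marks, while Kat8 and Kat2a were not called (-0.21 ± 0.11 and 0.09 ± 0.10). Of 7 Polycomb and BAP1 machinery genes, 4 leaned to H3K4me3 and 1 to H3K27ac (6 and 0 on the outermost 1 kb): Ezh1 at 0.97 ± 0.11, Pcgf2 at 0.57 ± 0.08, Foxk2 at 0.48 ± 0.09 and Epop at 0.38 ± 0.11, all 4 on chromosome 11, and Epop had 1709 and 1919 CPM of H3K27me3 beside its active marks. Of 5 Hox genes, 2 leaned to H3K27ac (Hoxc6 -0.87 ± 0.09, Hoxa2 -0.67 ± 0.19) and 0 to H3K4me3 (0 at an unadjusted p under 0.05, 0 with DESeq2, 5 on the outermost 1 kb), and Hoxc10 and Hoxc11 were not called (-0.22 ± 0.09 and -0.30 ± 0.24). The muscle gene Des and the neural gene Tubb3, the only members of their 6-gene marker lists measured, were low in both marks, Des with 11.9 and 13.2 CPM of H3K4me3 and 44.3 and 64.5 of H3K27ac and Tubb3 with 62.6 and 58.8 CPM of H3K4me3 and 60.1 and 95.3 of H3K27ac.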
